A study of Mus musculus with 64 samples.

Results

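Megakaryocyte-erythroid progenitors (MEP) were compared with stem and myeloid progenitors (SMP), both sorted from the spleen of wild-type mice. The comparison holds 6 of the 64 RNA-seq libraries of the series, taken by their labels: spleen, disease state none, genotype wt, 23 to 28 days of age, population MEP (3 libraries) or SMP (3 libraries). All 6 mice were +/+ animals of the strain CbyJ.Cby-Rasa3(scat)/Llp, whose homozygotes for the scat allele of Rasa3 pass through anaemic crises, and no treatment was named for them. Each population had 1 mouse of 28 days (replicate 1), 1 of 23 days (replicate 2) and 1 of 25 days (replicate 3). The SMP gate took Kit+ cells that carried CD34 and little CD16/32 and lacked lineage markers and Sca, a gate in which stem cells and common myeloid progenitors lie together, since Sca1 is too low in BALB mice to part them. MEP were isolated by a published protocol whose markers are not given in the sources used here. The MEP and the SMP came from different mice, so every difference below is between 3 mice and 3 other mice, and the p-values measure the spread between mice, sorts and preparations together.

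As background, blood cells form from Kit-positive progenitors that lose stem and myeloid programmes as they commit to the red cell lineage. Commitment runs with a switch from the transcription factor GATA2 to GATA1, the onset of KLF1, and the build-up of the erythropoietin receptor, iron import, heme synthesis and the red cell membrane skeleton. In mice the spleen keeps producing red cells after birth and enlarges this output under anaemia.

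Values are the deposited normalised counts, rescaled so that the median gene ratio between each library and the 6-library geometric mean is the same, and differences are log2(value + 1) in MEP minus SMP. Their standard errors (SE) come from the limma fit, as does each adjusted p. The deposited totals were 34.74M to 49.89M in MEP and 49.29M to 68.31M in SMP (M, 1e6), and rescaling brought them to 52.55M to 55.42M and 42.73M to 44.3M. Within MEP the median absolute log2 difference between libraries was 0.149 to 0.221 over the 15152 genes tested, within SMP 0.178 to 0.308, and between a MEP and an SMP library 0.827 to 0.949. MEP replicate 3 differed from the other MEP libraries: of the 891 genes at least 16-fold higher in SMP it was the highest MEP library in 694 (77.9%). SMP replicate 3 had the highest share of counts in its 10 leading genes (13.03%, against 5.1 to 8.493% in the other SMP libraries). Without rescaling the median difference over all genes tested moved from -0.07 to -0.98, so directions near 0 depend on this step and are marked below. In sorted bulk samples, fewer cells of a type and less RNA per cell cannot be told apart.

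Most genes differed between the populations. Of 15152 genes tested 10025 passed the threshold of adjusted p under 0.05 (66.2%), 4917 of them higher in MEP (32.5%) and 5108 higher in SMP (33.7%). The groups did not overlap for 72.2% of genes. Large differences lay mainly on the SMP side: 2707 genes were at least 4-fold higher in SMP and 546 at least 4-fold higher in MEP. At 16-fold the counts were 891 and 123. In the same way 549 genes were at 10 or more in every SMP library and under 10 in every MEP library, against 88 genes the other way. Left unscaled, the values gave 766 genes higher in MEP and 8376 higher in SMP.

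**Figure D1:**
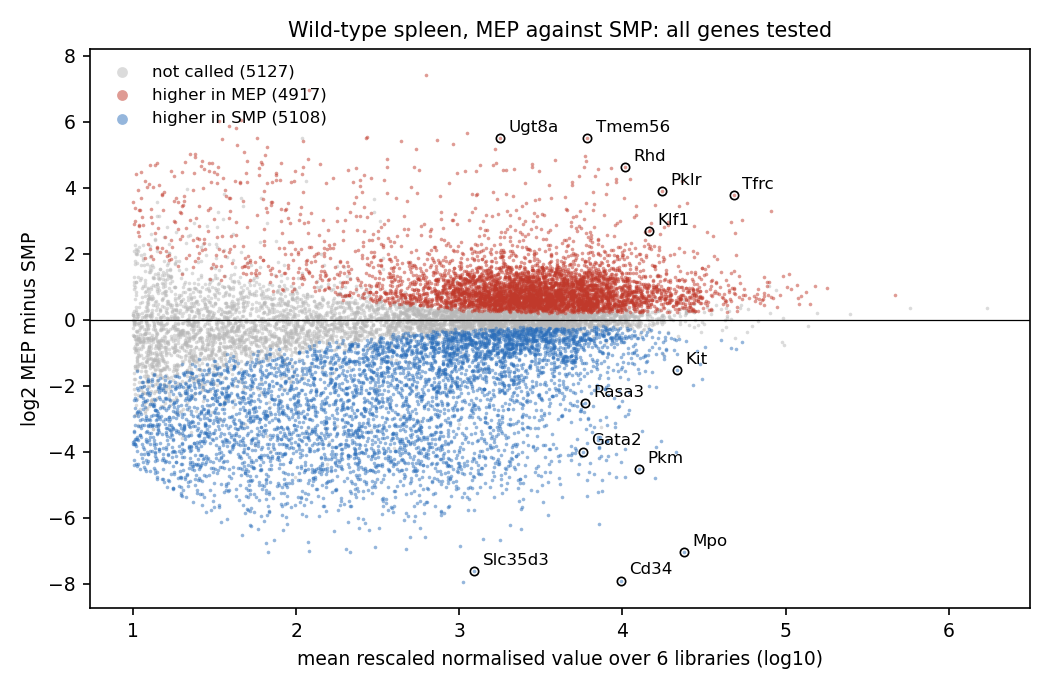
Each point is 1 of 15152 genes: the horizontal axis is the mean rescaled normalised value over the 6 libraries (log10), the vertical axis the log2 difference MEP minus SMP, and colour marks genes past the threshold (red 4917 higher in MEP, blue 5108 higher in SMP). The blue cloud reaches lower than the red cloud reaches high, with Cd34 and Mpo among the abundant genes at its lower edge.

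Cd34 and Kit, which the SMP gate requires, were high in SMP, which checks the labels and is no finding. Cd34, the surface sialomucin the SMP gate selects, read 39.9, 35.5 and 333 in MEP replicates 1 to 3 and 25001, 20102 and 13522 in SMP. The groups lay far apart, with MEP replicate 3 above the other MEP libraries (-7.9 (SE 0.88), adjusted p = 0.00042). Kit, the stem cell factor receptor by which the SMP gate selects, was present in all libraries, at 11233, 14237 and 8596 in MEP and 30501, 31671 and 33201 in SMP, and was 2.8-fold higher in SMP. Fcgr3 and Fcgr2b, the CD16 and CD32 receptors, were lower in MEP, with log2 differences of -3.47 and -4.58, as was Ptprc, the leukocyte antigen CD45, with -2.96. Ly6a, the gene of Sca1, was low in all libraries: 0, 8.88 and 3.52 in MEP and 159, 27.3 and 26.3 in SMP.

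Erythroid regulators split: Klf1 and Gata1 were among those higher in MEP, Gata2 and Myb among those higher in SMP. Of 16 erythroid transcription factors tested 8 were higher in MEP and 5 in SMP (81.2% called, against 66.2% of all genes), with a list median of 0.28 that turned to -0.62 without rescaling. Klf1, the activator of the globin and membrane genes, read 24544, 24277 and 26776 in MEP and 2978, 4314 and 4576 in SMP. Its MEP libraries lay close together and all above the SMP libraries, a 6.37-fold difference (2.69 (SE 0.16), adjusted p = 1.09e-05). Gata1, the master factor of the lineage, read 16914, 16790.0 and 15811 in MEP and 3195, 3596 and 4939 in SMP, without overlap (2.1 (SE 0.15), adjusted p = 2.31e-05). Gata2, which GATA1 displaces during commitment, moved the other way, at 462, 580.0 and 1111 in MEP and 8781, 11219.7 and 12308 in SMP. SMP stood 15-fold above MEP for it, and MEP replicate 3 was the highest of its group (-4.0 (SE 0.32), adjusted p = 7.26e-05). Per exon length, on a scale like TPM (value over length, as a share of the same over all genes), Gata1 stood at 368 and Gata2 at 7.25 in MEP, while in SMP Gata1 stood at 119 and Gata2 at 148, so the order of their levels was reversed between the populations.

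Gfi1b, a repressor needed for red cell and platelet formation, was 4.34-fold higher in MEP and Klf3, a KLF1 target that represses related sites, 3.26-fold (adjusted p = 9.02e-06 and 3.07e-05). Tal1, Zfpm1, Ikzf1 and Lmo2 were the other factors higher in MEP, of which Ikzf1 and Lmo2 turned below 0 without rescaling. Myb, Cbfa2t3, Nfe2 and Lyl1 were the other factors higher in SMP. Ldb1, Bcl11a and Foxo3 were not called, with log2 differences of 0.29, 0.24 and -0.31.

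The promoters of Klf1, Epor and Rhd, genes of the regulator, receptor and membrane groups that were higher in MEP, are shown as the 250 bases before the RefSeq start (GRCm38.p6), with GATA and KLF letters on either strand in capitals. The GATA letters searched were AGATAA. Those with TGATAA were counted with them. The KLF letters were CACACCC.
Klf1 (chr8:84901732-84901981, plus strand): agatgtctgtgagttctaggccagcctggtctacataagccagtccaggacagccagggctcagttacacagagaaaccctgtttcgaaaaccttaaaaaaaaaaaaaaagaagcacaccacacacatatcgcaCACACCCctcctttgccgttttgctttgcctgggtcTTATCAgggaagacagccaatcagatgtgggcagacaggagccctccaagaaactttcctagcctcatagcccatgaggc
Epor (chr9:21963577-21963826, minus strand): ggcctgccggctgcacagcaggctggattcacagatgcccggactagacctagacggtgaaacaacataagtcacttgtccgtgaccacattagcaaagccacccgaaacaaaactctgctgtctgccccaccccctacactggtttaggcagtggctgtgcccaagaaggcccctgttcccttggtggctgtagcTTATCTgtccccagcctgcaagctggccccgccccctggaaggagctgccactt
Rhd (chr4:134864286-134864535, plus strand): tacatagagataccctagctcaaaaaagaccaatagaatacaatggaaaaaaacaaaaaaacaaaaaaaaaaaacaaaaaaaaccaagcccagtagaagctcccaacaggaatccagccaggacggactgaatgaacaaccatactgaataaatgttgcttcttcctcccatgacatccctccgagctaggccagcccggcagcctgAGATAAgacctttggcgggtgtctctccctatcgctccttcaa
Each window held 1 GATA match and the Klf1 window also 1 KLF match, and no capital run overlapped another motif searched. GATA letters stood in 12% of 1789 windows (300 bases, 250 before to 50 after the start) of genes at least 2-fold higher in MEP, in 11.9% of 3787 windows of genes at least 2-fold higher in SMP and in 10.9% of all 13807 windows of tested genes. KLF letters stood in 8.44, 10.4 and 8.53% of these windows.

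Erythropoietin sensing, iron import and heme synthesis were higher in MEP almost throughout. Of 18 genes tested 17 were higher in MEP and 0 in SMP (94.4% called, against 66.2% of all genes). Their median log2 difference was 2.56, against -0.07 over all genes. Tfrc, the transferrin receptor that imports iron, read 76900.1, 61219 and 132076 in MEP and 5941, 6602 and 6041 in SMP. The SMP libraries lay within a narrow range and MEP replicate 3 was the highest, a 14.5-fold difference of the means (3.79 (SE 0.26), adjusted p = 3.05e-05). Epor, the erythropoietin receptor and singled out here after its values were seen, read 11474, 11164 and 10356 in MEP and 1328, 1802 and 2589.9 in SMP, 5.77-fold higher in MEP (adjusted p = 6.40e-05).

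Of the heme pathway, the enzyme Uros was 10.2-fold and the later enzyme Cpox 7.77-fold higher in MEP (adjusted p = 1.71e-06 and 6.66e-06). Uros read 8458, 7630.4 and 8430.0 in MEP and 708, 846 and 854 in SMP, without overlap. Slc25a38, the mitochondrial glycine carrier that feeds the pathway, was 7.19-fold higher. The exception was Alas2, the erythroid enzyme of the opening step, whose groups overlapped at 4202, 4784 and 6561 in MEP and 6104, 2882 and 1532 in SMP (0.76 (SE 0.50), adjusted p = 0.224).

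The list of red cell membrane, globin and late erythroid genes had the highest median of the 28 lists, while its globins were not called. Of 26 genes tested 20 were higher in MEP and 0 in SMP, with a median of 2.95. The share called was 76.9%, against 66.2% of all genes. Without rescaling Hba-a2, Bpgm and Mfsd2b were called higher in SMP. Cldn13, a claudin of erythroid cells, was 30.3-fold higher in MEP. Rhd, a rhesus blood group protein, read 19368, 20271 and 20336 in MEP and 922, 1033 and 566 in SMP, 23.8-fold apart with no overlap (4.62 (SE 0.21), adjusted p = 5.97e-06). Its partner Rhag stood 19-fold higher, the skeleton proteins adducin beta (Add2) and beta spectrin (Sptb) 18.6-fold and 17.6-fold (adjusted p = 1.71e-06, 6.74e-06 and 2.29e-05).

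Hbb-bs, an adult beta globin, read 84319, 84945 and 124404 in MEP and 113858, 45333 and 20339.6 in SMP, and Hba-a1, an alpha globin, 94263, 96062 and 129524 and 123218, 58871 and 24354. SMP replicate 1 held as much globin as the MEP libraries and SMP replicate 3 much less, so the groups overlapped and the log2 differences were 1.03 and 0.91 (adjusted p = 0.184 and 0.205). Without SMP replicate 1, Hbb-bs, Hba-a1 and Alas2 were higher in MEP by 1.66, 1.47 and 1.27 (adjusted p = 0.00988, 0.0184 and 0.0136). The globin genes have near-identical copies, and how reads were split between them is uncertain. Alas2 and Slc4a1, the anion exchanger of mature red cells, had the same order over the SMP libraries: Slc4a1 read 12648, 6462 and 3503 in SMP and 47174, 46533 and 49332 in MEP. Whether free red cell RNA took part in this order was not tested. The summed level of the list ranged from 942380 to 997016 in MEP and from 180272 to 398986 in SMP.

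Outside the lists, the genes most raised in MEP, among those called, without overlap and at a mean of 100 or more in MEP, included enzymes and transporters. Tmem56, a membrane protein gene, read 12460.4, 11972 and 11208 in MEP and 148, 446 and 265 in SMP, 41.5-fold higher. Aldh1a7 and Aldh3b2, aldehyde dehydrogenases, were 46.8-fold and 47-fold higher, Ugt8a, a galactosyltransferase, 42.5-fold, Pdia2, a disulfide isomerase, 40.5-fold, and Slc30a10, a manganese exporter, 34.7-fold (adjusted p = 2.68e-05, 4.04e-05, 1.67e-05, 2.14e-05 and 5.70e-05). Tac2, a tachykinin precursor, was 38-fold higher. Cacna1h, a T-type calcium channel, read 139, 322 and 257 in MEP and was listed at 0 in SMP replicates 2 and 3.

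The remaining 4 of these 12 genes were immunoglobulin V segments. Igkv15-103 read 92.6, 147 and 3504 in MEP and 2.58, 1.67 and 0 in SMP, and Ighv7-1 49.5, 152 and 2397 and 46.8, 1.67 and 0.83, and MEP replicate 3 was the highest library for both. Igkv1-135 read 168, 377 and 87.3 in MEP and 29.5, 0 and 1.32 in SMP, and Ighv2-9 65.6, 168 and 98.9 and 11.1, 0 and 0. V segments resemble each other closely, so their counts are uncertain.

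Cell cycle genes were higher in MEP as whole groups. All 25 DNA replication genes tested and all 25 mitosis genes tested were higher in MEP (100% each, against 32.5% of all genes), with medians of 1.38 and 1.46. Ccne1, the cyclin of the entry into S phase, read 15079, 13163 and 17253 in MEP and 778, 894 and 938 in SMP. It had the highest difference of its list, 17.4-fold (4.12 (SE 0.12), adjusted p = 1.71e-06). Ccne2 was 6.34-fold higher, the nucleotide reductase subunit Rrm2 7.08-fold, the replication licensing factor Cdc6 5.03-fold and thymidine kinase Tk1 3.86-fold. In mitosis, the survivin gene Birc5, the cyclins Ccna2 and Ccnb1 and the kinases Plk1 and Aurka were 4.12, 3.94, 3.85, 3.66 and 3.48 times as high in MEP as in SMP. Without rescaling 9 replication genes and 10 mitosis genes were called higher in MEP and 0 of either list higher in SMP.

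The D-type cyclins were exchanged. Ccnd2 read 2267, 2635 and 3663 in MEP and 19092, 24594 and 13535 in SMP, 6.68-fold higher in SMP, and Ccnd1 was 6.66-fold higher in SMP (adjusted p = 0.000108 and 0.000193). Ccnd3, singled out after its values were seen, read 29214, 30902 and 33371 in MEP and 8222, 8284 and 7497 in SMP, 3.9-fold higher in MEP (adjusted p = 3.99e-06). Per exon length Ccnd3 was the highest of the 3 in MEP (193 on the TPM-like scale, against 16.5 for Ccnd2 and 2.43 for Ccnd1) and Ccnd2 the highest in SMP (150.5, against 67.9 for Ccnd3 and 22.2 for Ccnd1). The list of cyclin-dependent kinase inhibitors and quiescence genes also holds these D-type cyclins, Cdk4 and Cdk6, so it is no count of inhibitors alone. Of its 15 genes tested 3 were higher in MEP and 10 in SMP, with a median of -1.12. The share called was 86.7%, against 66.2% of all genes. Cdkn1c (p57) was 7.55-fold and Cdkn1a (p21) 4.12-fold higher in SMP, and Cdkn2c (p18) was 4.91-fold higher in MEP.

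Cytosolic ribosomal protein genes were modestly higher in MEP, 24 of 32 with 0 higher in SMP and a median of 0.62. The share called was 75%, against 66.2% of all genes. Without rescaling this direction turned to a median of -0.28, with 0 higher in MEP and 3 higher in SMP. Rplp1 and Rplp0, stalk proteins, were 2.29-fold and 2-fold higher in MEP on the rescaled values. Rps2, Rps14 and Rpl8 were 1.95, 1.87 and 1.9 times as high. Of 20 oxidative stress defence genes 14 were higher in MEP and 1, Cat, in SMP (75% called), with a median of 0.79. That median likewise turned to -0.11 without rescaling. Prdx2, the peroxiredoxin abundant in red cells, read 56299, 62375 and 64726 in MEP and 11363, 11357 and 8766 in SMP, 5.83-fold apart. Txnrd2, a mitochondrial thioredoxin reductase, was 5.32-fold higher, Gclm and Gclc, which form the enzyme that starts glutathione synthesis, 3.28-fold and 3.27-fold, and Gpx4, a lipid peroxidase, 2.94-fold.

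Megakaryocyte and platelet genes were lower in the population named after that lineage. Of 24 tested, 23 were higher in SMP and 1 in MEP (100% called, against 66.2% of all genes), with a median of -3.91. Itga2b (CD41), the platelet integrin and singled out after its values were seen, read 113, 105 and 289 in MEP and 3576, 4773 and 4836 in SMP, 26-fold higher in SMP (adjusted p = 5.21e-05). All MEP libraries lay far below all SMP libraries, with MEP replicate 3 nearest to them. Pf4, a platelet granule chemokine, read 1.6, 3.81 and 77.6 in MEP and 298, 440.4 and 179.9 in SMP, and Gng11, a G protein subunit, read 1.6, 6.34 and 23.5 and 301, 222 and 166. Selp, P-selectin, was listed at 0 in MEP replicates 1 and 2 and at 185, 142 and 110.3 in SMP, and Treml1, a platelet receptor, at 0, 8.89 and 8.49 in MEP and 108, 217 and 131 in SMP. The 1 member higher in MEP was Gp9, a subunit of the von Willebrand receptor, at 461, 432 and 456 in MEP and 179.5, 264 and 215 in SMP, a call that ended without rescaling. The summed level of the list was 2560 to 5441 in MEP and 33658 to 43495 in SMP.

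Genes of stem cells and early progenitors were higher in SMP with a single exception. Of 26 tested 25 were higher in SMP and 1 in MEP (100% called, against 66.2% of all genes), with a median of -4.08. Mycn, a Myc family factor, read 67.1, 80 and 123 in MEP and 4498, 5874 and 3764 in SMP, 52.3-fold higher in SMP (-5.72 (SE 0.26), adjusted p = 4.02e-06). Hlf, a transcription factor of blood stem cells, read 115, 139.6 and 495 in MEP and 9215, 8576 and 7105 in SMP. For Hlf as for Mycn the groups were far apart, with MEP replicate 3 the highest MEP library (33.2-fold, adjusted p = 0.00028). Cd27, a TNF receptor family member, was 30.3-fold higher in SMP, the homeobox factor Meis1 26.6-fold and the niche ligand Angpt1 26.9-fold. The exception was Mllt3, a chromatin reader of stem cells and erythroid cells, at 5451, 5271 and 3900.1 in MEP and 1979, 1791 and 2043 in SMP (adjusted p = 0.000113, not called without rescaling).

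**Figure D2:**
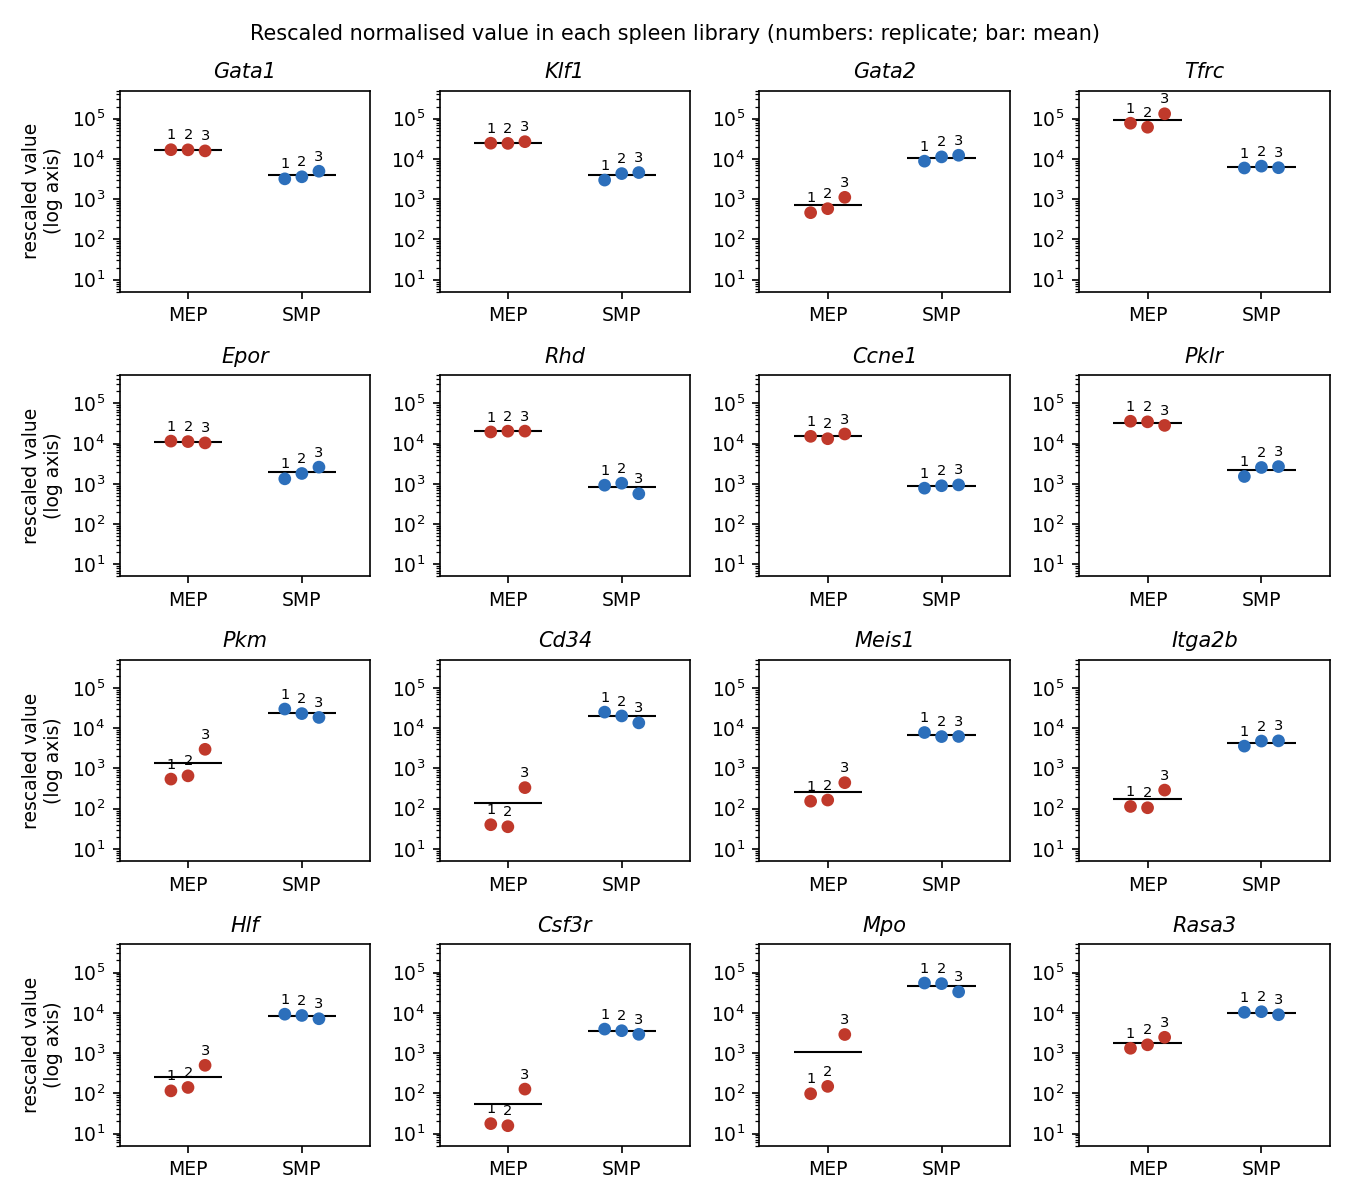
Rescaled normalised value (log axis) of 16 genes in each library, MEP in red and SMP in blue, points numbered by replicate and bars at the mean. The groups do not overlap for any of the 16, and for Cd34, Meis1, Hlf, Csf3r and Mpo the point of MEP replicate 3 lies above the other MEP points.

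Regulators that prime granulocyte, monocyte and lymphoid fates were higher in SMP. Of 23 tested 16 were higher in SMP and 2 in MEP, Cebpd and Ikzf1, with a median of -4.14, the lowest of the 28 lists. The share called was 78.3%, against 66.2% of all genes. Csf3r, the receptor for G-CSF, read 17.6, 15.7 and 127 in MEP and 3931, 3584 and 2916 in SMP, 65-fold higher in SMP (-6.66 (SE 0.78), adjusted p = 0.00038). Cebpa, the granulocyte-monocyte factor, read 3.18, 12.7 and 47.3 in MEP and 1243, 1367 and 789 in SMP, 53.9-fold (adjusted p = 0.000459). MEP replicate 3 was again the highest MEP library for both. Csf1r, the macrophage growth factor receptor, was 56.1-fold higher in SMP and Notch1 22.9-fold (adjusted p = 2.35e-05 and 0.00243).

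Among cytokine receptors and STAT feedback genes 19 of 24 were higher in SMP and 2 in MEP, Epor and Il1rl1 (median -2.4). Il1rl1 was not called without rescaling. The share called was 87.5%, against 66.2% of all genes. Kit, by which the SMP gate selects, is among the 19. Csf2rb and Csf2rb2, the shared chains of the IL-3 receptor family, were 50.5-fold and 79.2-fold higher in SMP, and as near-identical neighbours they may share reads. Il6ra, an IL-6 receptor chain, was 34.3-fold higher.

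Primary granule genes, which neutrophil precursors load into their earliest granules, were higher in SMP for 11 of 14 tested, with a median of -3.95. Calr was higher in MEP (below 0 without rescaling). Together 85.7% were called, against 66.2% of all genes. Mpo, myeloperoxidase, read 97.4, 148 and 2883 in MEP and 54719.8, 52915 and 33162 in SMP. MEP replicate 3 lay far above the other MEP libraries and still below every SMP library (-7.04 (SE 1.27), 45-fold, adjusted p = 0.00339). Ctsg, cathepsin G, read 6.39, 2.53 and 107 in MEP and 1249.5, 1048 and 495 in SMP, and Prtn3, proteinase 3, 22.3, 29.2 and 195 and 2225, 1961 and 1321. Cst7, a cystatin, was 35.5-fold and Serpinb1a, an inhibitor of granule proteases, 15.9-fold higher in SMP. Elane, neutrophil elastase, was not called, and MEP replicate 3 (3.19, 5.07 and 322 in MEP) exceeded the SMP libraries (170.3, 85.3 and 129).

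The promoters of Mpo and Csf3r, leading genes of the granule and receptor groups that were higher in SMP, are shown in the same way with PU.1 letters (GAGGAA) on either strand in capitals.
Mpo (chr11:87793534-87793783, plus strand): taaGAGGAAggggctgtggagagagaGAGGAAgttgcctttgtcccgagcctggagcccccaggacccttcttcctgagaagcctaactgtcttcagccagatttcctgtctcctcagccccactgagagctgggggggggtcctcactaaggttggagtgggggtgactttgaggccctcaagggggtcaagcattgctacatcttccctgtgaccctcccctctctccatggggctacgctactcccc
Csf3r (chr4:126024409-126024658, plus strand): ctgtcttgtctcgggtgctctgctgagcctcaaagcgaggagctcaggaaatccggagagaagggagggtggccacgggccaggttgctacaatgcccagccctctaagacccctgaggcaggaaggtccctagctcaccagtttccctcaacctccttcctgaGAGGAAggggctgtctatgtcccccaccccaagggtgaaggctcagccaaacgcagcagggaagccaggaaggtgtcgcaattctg
The Mpo window held 2 matches and the Csf3r window 1, with no overlap with another motif searched. PU.1 letters stood in 30.4% of windows of genes at least 2-fold higher in SMP, in 23.0% of those higher in MEP and in 26.7% of all. E-box letters (CAGNTG) stood in 51.4, 43.5 and 44.8%, and RUNX letters (TGTGGT) in 14.5, 14.3 and 13.3%. The letters are short and the shares are descriptions.

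The genes most raised in SMP, by the same rule as for MEP, included Cd34, Mpo and Csf2rb2 of the lists above and Slc35d3, a transporter of platelet dense granules, at 6.37, 10.2 and 21.2 in MEP and 1797, 2604 and 2979.7 in SMP, 196-fold apart (adjusted p = 8.51e-06). Several were listed at 0 in MEP libraries, so no fold is given. Sema3d, a semaphorin, read 0, 10.2 and 40.5 in MEP and 2399, 2892 and 1016 in SMP. Cd14, a monocyte coreceptor, and Wfdc17, a protease inhibitor family gene, were listed at 0 in all 3 MEP libraries and read 151, 158 and 91.4 and 140.3, 207 and 42.9 in SMP. The others were P2rx1, an ATP-gated channel (919, 967 and 851 in SMP), Gria2, a glutamate receptor subunit (441, 393 and 374), Vldlr, a lipoprotein receptor (783, 738 and 297), Glis3, a zinc finger factor (289, 272 and 153), and Robo3, a guidance receptor (270.0, 410.0 and 584). Each of these 5 genes was listed at 0 in MEP replicate 1, and the highest MEP value among them was 67.6, of P2rx1 in replicate 3.

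Rasa3, the gene mutated in the scat strain and wild type in these mice, encodes an activator of the GTPase function of Ras and Rap1 and so switches them off. It read 1313, 1602 and 2459.6 in MEP and 10265, 10628 and 8947 in SMP. Every SMP library lay above every MEP library, a 5.55-fold difference of the means (1791 ± 597 in MEP and 9947 ± 885 in SMP, SD, n = 3, -2.52 (SE 0.22), adjusted p = 6.60e-05). Of 29 Ras and Rap regulators tested 13 were higher in SMP and 6 in MEP, with a median of -0.27. Together 65.5% were called, a share close to the 66.2% of all genes. Other Ras-inactivating proteins were higher in SMP too: Rasal1 was 11.9-fold and Rasa4 11.2-fold higher (adjusted p = 0.0043 and 0.00663), and Rasa1, not called, read 2763, 3077 and 2643 in MEP and 3402, 2929 and 2848 in SMP.

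Among the exchange factors that activate Rap the members split. Rasgrp2, Rapgef2, Rapgef3 and Rapgef5 were higher in SMP. Rapgef1 and Rapgef6 were higher in MEP, by 0.47 and 0.79 on the log2 scale, and below 0 without rescaling. Rasgrp2, the main Rap1 activator of platelets, read 157, 278 and 1884 in MEP and 7180.2, 7431 and 7951 in SMP, 9.73-fold higher in SMP, and Rapgef5 was 4.84-fold higher (adjusted p = 0.00724 and 0.0199). Rap1gap, which inactivates Rap1, moved the other way: it read 6414, 7880.4 and 5672 in MEP and 239, 605 and 412 in SMP, 15.9-fold higher in MEP without overlap (4.07 (SE 0.33), adjusted p = 6.01e-05). Other genes that inactivate Rap did not share its direction. Rap1gap2 and Sipa1l1 were 5.2-fold and 3.91-fold higher in SMP (adjusted p = 0.00124 and 1.88e-05), and Sipa1 was not called (adjusted p = 0.205). Among the GTPases, Hras was higher in MEP by 1.82, and Nras was not called (-0.02, adjusted p = 0.861). Without rescaling 2 members of the list were higher in MEP and 22 higher in SMP.

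Feedback genes of the ERK pathway, which Ras drives, were higher in SMP for 13 of 16 and in MEP for 0, with a median of -2.02. The share called was 81.2%, against 66.2% of all genes. The ERK phosphatases Dusp5, Dusp4 and Dusp6 were 17.3-fold, 11.4-fold and 7.32-fold higher in SMP (adjusted p = 0.000396, 0.000487 and 0.00163). Fos, an immediate early factor, read 14.4, 17.8 and 26.6 in MEP and 146, 214 and 678 in SMP, and Egr1 476, 588 and 109 and 1048, 1564 and 3519. For both, SMP replicate 3 was the highest library.

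Among glycolysis genes the isozymes of pyruvate kinase lay on opposite sides. Of 21 tested 10 were higher in SMP and 6 in MEP, with a median of -0.28 (76.2% called, against 66.2% of all genes). Without rescaling 17 were higher in SMP and 3 in MEP, with a median of -1.19. Pklr, the red cell pyruvate kinase, read 35723, 34575 and 28195 in MEP and 1517, 2540.2 and 2673 in SMP, 14.6-fold higher in MEP (3.91 (SE 0.22), adjusted p = 1.38e-05). Pkm, the pyruvate kinase of most other tissues, read 543, 654 and 2980.0 in MEP and 29836, 22969 and 18430.4 in SMP, 17.1-fold higher in SMP (-4.51 (SE 0.66), adjusted p = 0.00136). Per exon length Pklr stood at 552 and Pkm at 15.3 on the TPM-like scale in MEP, against 51.3 and 355 in SMP. The glucose transporter Slc2a1 was 10.7-fold, hexokinase Hk2 7.3-fold and lactate dehydrogenase Ldhb 15.3-fold higher in SMP (adjusted p = 0.000333, 0.000107 and 0.00021). The lactate exporter Slc16a1, named after its values were seen, was 4.74-fold higher in MEP.

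Response genes lay mostly on the SMP side. Of 22 interferon response genes 14 were higher in SMP and 1, Usp18, in MEP (68.2% called, near the 66.2% of all genes, median -1.15). Oasl2 read 14.4, 16.5 and 50.1 in MEP and 1573, 504 and 566 in SMP, and Iigp1, Irf1, Ifi44 and Mx2 were 16.9, 12.9, 12.2 and 12.2 times as high in SMP. SMP replicate 1 was the highest library for Oasl2. Of 13 NF-kB and inflammatory genes 11 were higher in SMP and 0 in MEP (84.6% called, against 66.2% of all genes, median -1.71). The cytokine Tnf read 8.01, 3.81 and 25.2 and 124, 117 and 135, the chemokine Ccl3 7.98, 6.34 and 1.6 and 73.7, 122 and 89.6, and Ccl4 was listed at 0 in MEP replicates 1 and 2. Icam1 and Tnfaip3 were 14.4-fold and 3.28-fold higher in SMP.

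Of 15 immediate early and heat shock genes, which also respond to tissue dissociation, 7 were higher in SMP and 3 in MEP (median -0.69), and the 66.7% called lay at the 66.2% of all genes. Fosb read 3.18, 2.55 and 4.9 in MEP and 287, 264 and 269.5 in SMP, 77.3-fold apart, and Zfp36 and Ier3 were 5.74-fold and 4.2-fold higher in SMP. The 3 higher in MEP were Dusp1, Hsp90aa1 and Dnajb1, none of them called without rescaling. Of 19 p53 response genes 9 were higher in SMP and 5 in MEP (median -0.49, or 0.11 with a filter at a mean of 100). The share called was 73.7%, against 66.2% of all genes. Pmaip1, Perp, Plk2 and Trp53inp1 were 5.51, 5.77, 3.01 and 2.88 times as high in SMP, while Ccng1, Bax, Sesn2, Aen and Gtse1 were higher in MEP, with Aen below 0 without rescaling.

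Signals linked to stress erythropoiesis in the spleen were higher in SMP for 9 of 16 and in MEP for 2, with a median of -1.57. The 68.8% called lay near the 66.2% of all genes, of which 33.7% were higher in SMP. Kit, by which the SMP gate selects, is among the 9. The BMP pathway mediator Smad1 was 11.9-fold, the receptor Acvr1 11-fold and the target Id1 4.8-fold higher in SMP (adjusted p = 2.13e-05, 0.000271 and 0.0222), and the inhibitor Smad6 read 8.01, 0 and 8.8 in MEP and 132, 167 and 139.8 in SMP. Erfe, the hormone by which erythroid cells lower hepcidin, read 398, 256 and 925 in MEP and 45, 30.4 and 76.9 in SMP. MEP replicate 3 was the highest library and the groups did not overlap (3.24 (SE 0.53), 10.4-fold, adjusted p = 0.00107).

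**Figure D3:**
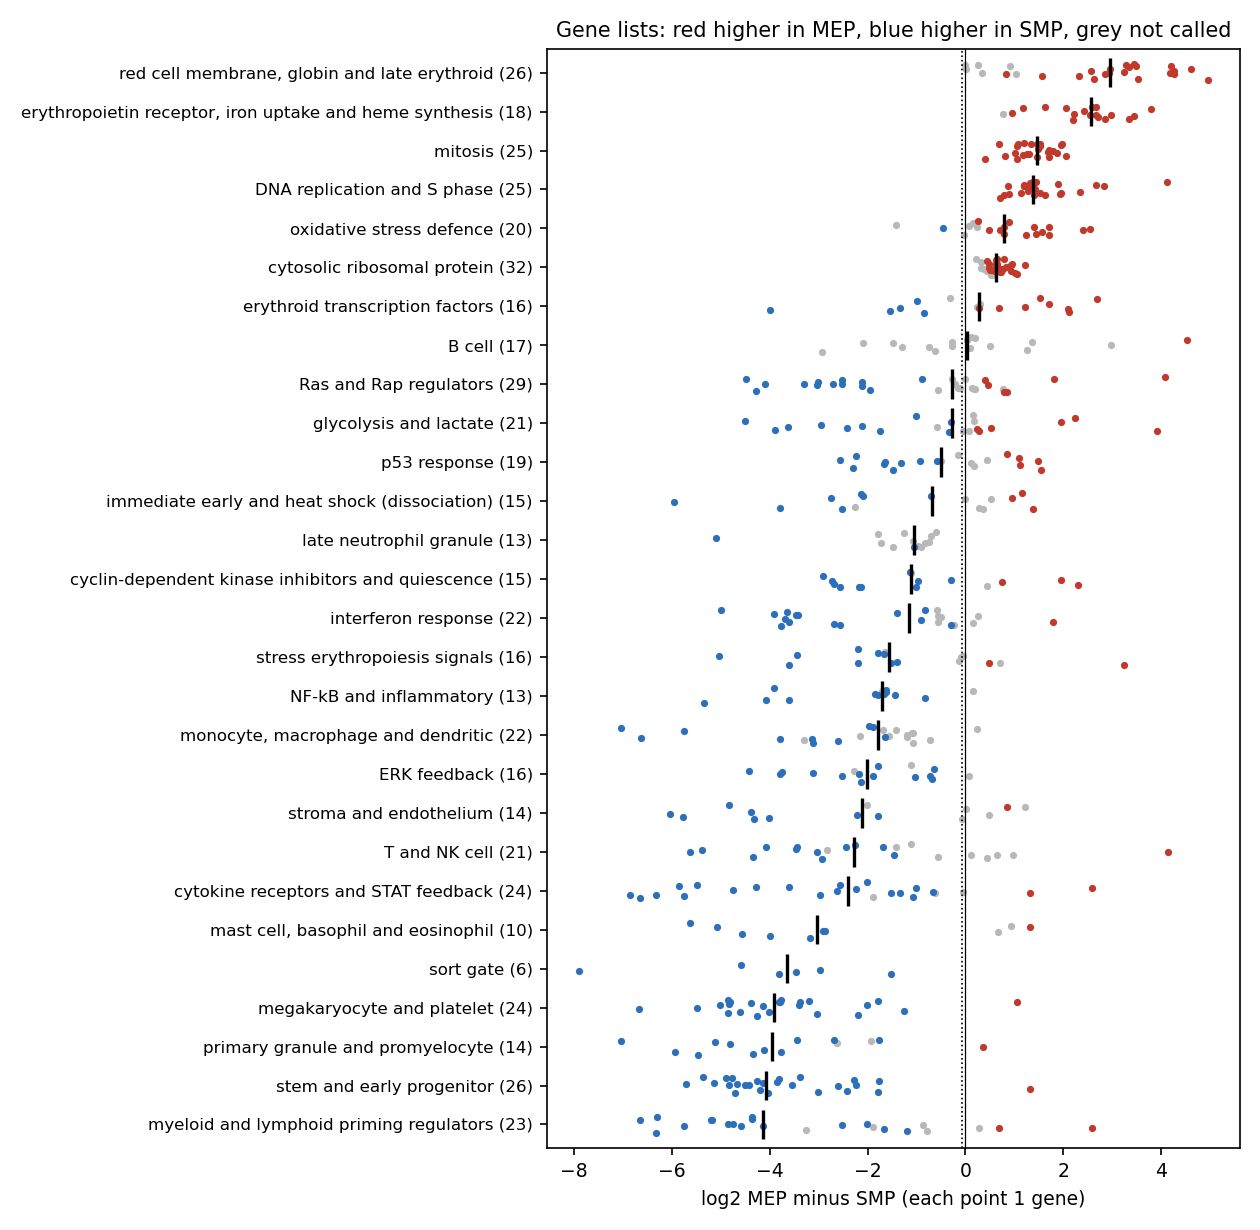
Each point is 1 gene of the list named at the left (number tested in brackets), placed by its log2 difference MEP minus SMP, red where higher in MEP, blue where higher in SMP and grey where not called. Black bars are list medians, from 2.95 for the red cell membrane list to -4.14 for the myeloid and lymphoid priming list, and the dotted line is the median of all genes, -0.07.

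Markers of other cell types were present at different levels in the libraries. Over all genes tested 66.2% were called, 32.5% higher in MEP and 33.7% higher in SMP. B cell genes were not called apart from Igkc (1 of 17, 5.88%): their summed level was 12510, 32444 and 57244 in MEP and 20015, 11784 and 7830 in SMP, so MEP replicate 3 was the highest and MEP replicate 1 lay among the SMP libraries. The recombinase gene Rag1 read 81.4, 456 and 4969.6 in MEP and 1070.0, 1197 and 683 in SMP. Igkc, the kappa constant region, read 1758, 4296 and 4694 and 644, 209 and 20. The median of 0.03 and the calls turned on single libraries. Without MEP replicate 3, 0 of these genes were higher in MEP and 4 in SMP, with a median of -1.38, and without MEP replicate 1, 5 were higher in MEP and 0 in SMP, with a median of 1.37.

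Of 21 T and NK cell genes 12 were higher in SMP and 1, Ncr1, in MEP (median -2.27). The 61.9% called lay below the 66.2% of all genes. Sums of the list were 1307 to 1952 in MEP and 8699 to 10862 in SMP. Cd4 and Lat were 37.7-fold and 16.4-fold higher in SMP, Gzmb and Nkg7 of cytotoxic granules 44.6-fold and 19.9-fold. The defining T cell marker Cd3e overlapped, at 7.98, 17.8 and 18.6 in MEP and 112, 6.64 and 0 in SMP, and was listed at 0 in SMP replicate 3. Of 22 monocyte, macrophage and dendritic genes 10 were higher in SMP and 0 in MEP (median -1.79). The share called was 45.5%, against 66.2% of all genes. Sums of this list were 1268 to 3712 in MEP and 7221 to 17557 in SMP. F13a1, a monocyte transglutaminase, was 68.3-fold and Adgre1 (F4/80) 10.4-fold higher in SMP, and Klf4 read 0, 11.4 and 16.8 and 126, 77.7 and 57.9.

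Of late neutrophil granule genes 2 of 13 were higher in SMP, Itgam (20.1-fold) and Cxcr2 (1.97-fold), and 11 were not called (median -1.05). The share called was 15.4%, against 66.2% of all genes. Sums of the list were 502, 415 and 2699 in MEP and 4497, 2380 and 1923 in SMP, so MEP replicate 3 overlapped the SMP range. Without it 8 of 13 were higher in SMP. Of 10 mast cell, basophil and eosinophil genes 7 were higher in SMP and 1, Il1rl1, in MEP (80% called, median -3.04). Hdc was 22.6-fold, Cpa3 19.9-fold and Mcpt8 9.05-fold higher in SMP. The eosinophil genes Prg2 and Epx were not called, and MEP replicate 3 was the highest library for both. Prg2 read 19.15, 26.65 and 270 in MEP and 35.5, 21.8 and 43.3 in SMP, and Epx 1.6, 8.88 and 102 and 4.59, 6.84 and 7.55. Another 8 members fell under the filter on low values. Of 14 stroma and endothelium genes 8 were higher in SMP and 1, Plvap, in MEP (median -2.11). Plvap lay below 0 without rescaling. The 64.3% called lay near the 66.2% of all genes. Pdgfrb, Emcn, Pecam1 and Kdr were 41.5, 64, 15.5 and 25.8 times as high in SMP, and Cdh5 read 0, 0 and 1.6 and 78.1, 13.3 and 17. The part of such cells in the differences above was not tested.

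**Figure D4:**
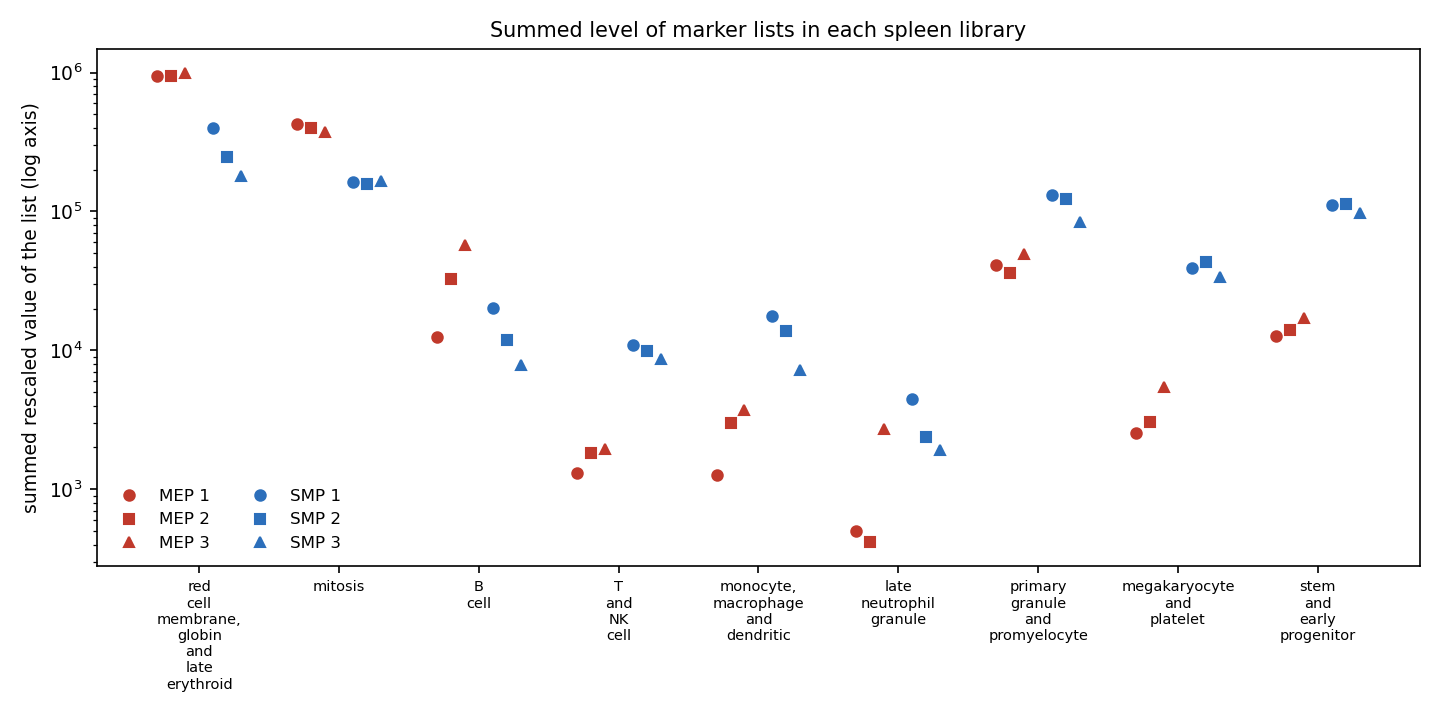
Summed rescaled value (log axis) of 9 lists in each library, red for MEP, blue for SMP, with circles, squares and triangles for replicates 1, 2 and 3. The B cell and late neutrophil sums overlap between the populations, with MEP replicate 3 the highest MEP library, and the other 7 lists do not overlap.

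Single libraries moved some of these values. Of 202 genes named here and followed over the libraries 187 were called in spleen, and 17 of them lost the call when 1 library was left out. Without MEP replicate 3, 44 called genes moved by over 1.5-fold, all but Egr1, Ighv7-1 and Igkv15-103 away from 0 and higher in SMP: Cd34 from -7.9 to -8.92, Mpo to -8.54, Csf3r to -7.60, Cebpa to -7.18, Hlf to -6.00, Pkm to -5.27 and Rasgrp2 to -5.14. Without MEP replicate 1, 28 moved, among them Mpo to -6.09, Cebpa to -5.40 and Rasgrp2 to -3.34. The counts were 10 without MEP replicate 2 and 9, 4 and 7 without SMP replicates 1, 2 and 3.

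Lost calls had adjusted p from 0.0514 (Igkc without MEP replicate 3) to 0.114 (Ighv7-1 without SMP replicate 3). By library left out they numbered 5, 11 and 3 for MEP replicates 1 to 3 and 6 for each SMP library. Without MEP replicate 2 the adjusted p was 0.0641 for Cdkn1a, 0.0768 for Id1, 0.0521 for Pf4, 0.0557 for Plk2, 0.052 for Plvap, 0.0778 for Rapgef5, 0.0617 for Trp53inp1, 0.0619 for Igkc, 0.0713 for Ighv7-1, 0.0883 for Lmo2 and 0.0682 for Znf41-ps. Without SMP replicate 1 it was 0.0521 for Ly6a, 0.055 for Perp and 0.0689 for Dusp1. Without SMP replicate 3 it was 0.0758 for Egr1, 0.0547 for Cxcr2 and 0.0659 for Calr.

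The same populations of bone marrow gave a reference. These 6 libraries came from the 3 mice that gave the spleen MEP, and the spleen SMP came from 3 other mice, so spleen SMP and its set of mice cannot be told apart. In a joint fit of 12 libraries with the mouse as a random block, 10783 genes were called in spleen and 10678 in marrow. Of these 9452 were called in both (87.7% of the spleen and 88.5% of the marrow calls), 9413 in the same direction and 39 in opposite directions. Over the 15092 genes tested the spread of the log2 differences was 1.16 times as wide in spleen. The difference between tissues itself was called for 228 genes (1.51%), 129 of them with a higher and 99 with a lower MEP-SMP difference in spleen.

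This count depended on the settings and libraries. It was 76 with no block, 37 without rescaling (0 higher and 37 lower), and from 15 to 642 when 1 library was left out. It fell to 15 without marrow MEP replicate 1, 19 without marrow SMP replicate 1, 20 without spleen MEP replicate 1, 43 without marrow MEP replicate 3, 52 without spleen SMP replicate 2, 66 without spleen MEP replicate 2 and 67 without marrow SMP replicate 3, and rose to 642 without spleen MEP replicate 3 and to 601 without spleen SMP replicate 1. Of the genes named for this contrast, Sh3tc2 kept its call whichever library was left out, and each of the others lost it at least once.

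Erythroid genes were among those with a smaller MEP-SMP difference in spleen. On the scale of the joint fit, Klf1 read 2885, 4172 and 4446 in spleen SMP and 992, 1599 and 903 in marrow SMP, against 23549.5, 23269 and 25980.4 and 22908, 22336 and 18523 in the MEP of spleen and marrow. The SMP levels did not overlap between the tissues, and the difference of differences was -1.54 (SE 0.29) (adjusted p = 0.0369). Add2 likewise read 673, 1204 and 835 in spleen SMP and 144, 288 and 122 in marrow SMP (-2.14 (SE 0.40), adjusted p = 0.0369). Of the 26 genes of the red cell membrane, globin and late erythroid list 3 passed, beside 1.51% of all genes called in this contrast. How this count of 3 depended on settings and libraries was not followed. The list median was 2.95 in spleen and 4.11 in marrow.

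Mitosis genes differed the other way for 10 of 25, each with a larger excess in spleen MEP over SMP, beside 1.51% of all genes called in this contrast in either direction. Without rescaling all 10 calls ended and their median turned from 0.49 to -0.19. With no block 4 were called. Leaving out marrow MEP or SMP replicate 1 left 0 called, leaving out marrow MEP or SMP replicate 3 or spleen MEP replicate 1 or 2 left 1, and leaving out spleen SMP replicate 2 left 2. Bub1, a spindle checkpoint kinase singled out after its values were seen, read 7482, 7060.5 and 6608 in spleen MEP, 2412, 1774 and 2532 in spleen SMP, 6279, 6312 and 5889 in marrow MEP and 3474, 3310.2 and 3597 in marrow SMP. The spleen SMP libraries were the lowest of the 12 (0.84 (SE 0.15), adjusted p = 0.03). Of the 25 replication genes 0 passed in this contrast.

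Of the genes that differed most between tissues, Bcl11b and Trbc1, a T lineage factor and a T cell receptor constant region, had higher values in spleen SMP. Trbc1 read 288, 388 and 396 in spleen SMP and 16.4, 95 and 13.6 in marrow SMP, with 51.2, 103 and 71.9 and 115, 85.7 and 123 in MEP, so the direction MEP against SMP was opposite in the tissues (-4.17 (SE 0.80), adjusted p = 0.0356). Bcl11b read 168, 176 and 172 in spleen SMP and 1.2, 28.2 and 5.38 in marrow SMP (-4.48 (SE 0.93), adjusted p = 0.0395). In MEP it read 56.6, 87.6 and 80.8 in spleen and 65.6, 64.7 and 82.5 in marrow. In the joint fit it was higher in MEP in marrow (3.27, adjusted p = 0.000428) and not called in spleen (-1.21, adjusted p = 0.139). Dpysl3 and Lrrc23 were lower in MEP by more in spleen than in marrow, with estimates of -4.37 (SE 0.96) and -3.80 (SE 0.72). In marrow the joint fit called Lrrc23 (-2.09, adjusted p = 0.00162) and did not call Dpysl3 (-0.66, adjusted p = 0.37). Sh3tc2 was higher in MEP in both, by 2.70 in spleen and 6.62 in marrow (-3.92 (SE 0.48), adjusted p = 0.0103).

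At the other end, Col1a1, a collagen of stromal cells, read 8.28, 11.4 and 21.9 in spleen SMP and 301, 86.1 and 492 in marrow SMP, with 16.9, 18.2 and 94.1 and 19.2, 20.6 and 32.6 in MEP (4.47 (SE 0.92), adjusted p = 0.0381). The highest libraries were marrow SMP replicates 3 and 1, while marrow SMP replicate 2 lay below spleen MEP replicate 3. Gm13502, Znf41-ps, Gm3604 and Zfp934 followed, with estimates of 2.94 (SE 0.61), 1.77 (SE 0.40), 1.59 (SE 0.32) and 1.58 (SE 0.27), and some of these belong to zinc finger families whose copies may share reads. The part of stromal or T lineage cells in these values was not tested.

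**Figure D5:**
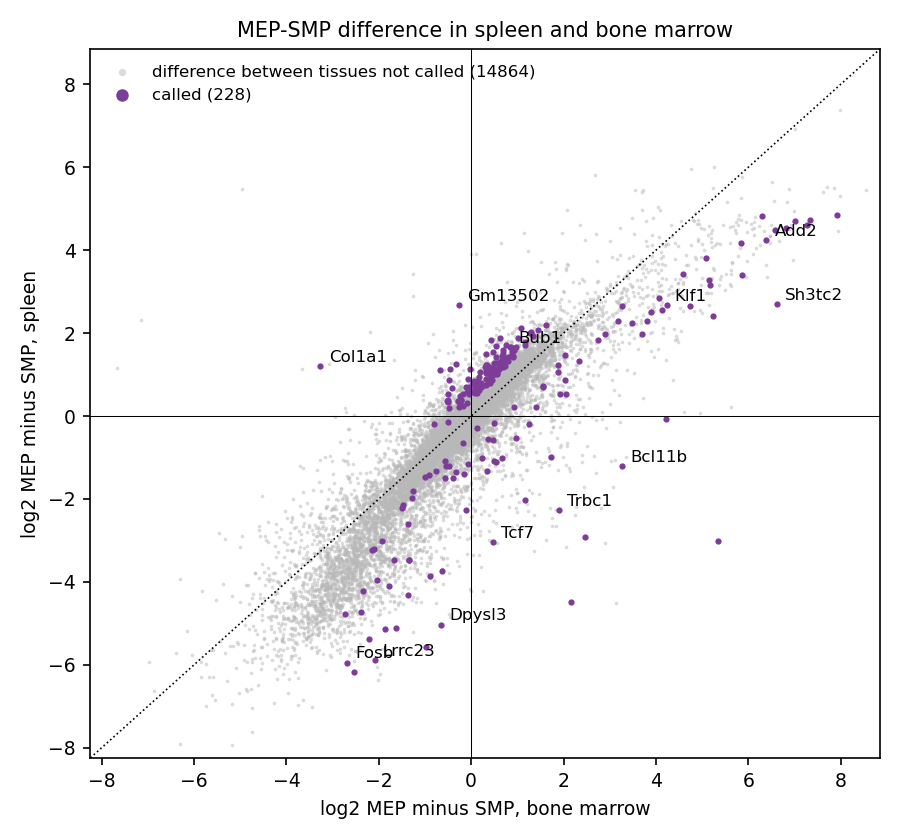
Each point is 1 of 15092 genes, with the log2 difference MEP minus SMP in bone marrow on the horizontal axis and in spleen on the vertical axis, and purple points are the 228 genes whose difference between tissues was called. Col1a1 lies far above and Sh3tc2, Bcl11b and Trbc1 far below the dotted line of equal differences.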

How the data were processed

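RNA-seq libraries from sorted mouse spleen and bone marrow cells were used. Per the submitters' processing notes, the tools were Bowtie2 2.2.0, RSEM and DESeq2 with the build GRCm38; roles and order are not given in the sources used here. The deposited table of normalised counts is a signal, not whole reads, so no count model was run; the depth in reads is unknown. The authors also deposited a regularised log2 table, used as an alternative. Symbols came from the annotation of the same build (25607 of 26286 IDs matched), promoters from RefSeq (GRCm38.p6).

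Libraries were rescaled by the median over genes of the ratio to the geometric mean library. Genes averaging 10 or more were fitted as log2(value + 1) by limma 3.58.1 (R 4.3.3, trend and robust options, two-sided, Benjamini-Hochberg adjusted p under 0.05), so a difference understates low genes. Folds are ratios of group means. Per-length values divide by exon length. The joint fit with marrow took the mouse as a random block (correlation 0.228). An exact test of 3 against 3 libraries cannot go below p = 0.1 for 1 gene. The fits were tested on simulated data. Alternatives covered scaling (none, or a trimmed mean of log ratios), filter, pseudocount, table, blocks and leaving out each library.

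Named genes were the 12 most raised each way among called genes without overlap and with a mean of at least 100 in the higher population, the 5 most changed called members of each of 28 lists, and the 5 most changed each way between tissues; others were singled out after their values were seen, including every gene named only for its direction, its lack of a call or a loss of a call. The genes and lists were chosen with earlier results of these data known. Some genes that this rule names are not reported here.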

Additional observations from a re-analysis of the deposited data

Results flagged for a closer look

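The difference between MEP and SMP itself differed between spleen and bone marrow, by the interaction term of the joint limma fit, for 228 of 15092 genes. The values below are on the log2 scale, spleen difference minus marrow difference, and are not levels in spleen. Named genes with a higher MEP-SMP difference in spleen were Col1a1 (4.47), Gm13502 (2.94), Znf41-ps (1.77), Gm3604 (1.59), Zfp934 (1.58) and Bub1 (0.84). Those with a lower MEP-SMP difference in spleen were Bcl11b (-4.48), Dpysl3 (-4.37), Trbc1 (-4.17), Sh3tc2 (-3.92), Lrrc23 (-3.8), Fosb (-3.26), Add2 (-2.14) and Klf1 (-1.54). The adjusted p of these 14 genes lay between 0.01032 for Sh3tc2 and 0.04932 for Znf41-ps.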

How the results depend on the processing

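Without rescaling, 766 genes were called higher in MEP and 8376 higher in SMP. List counts then moved: higher in MEP were 5 erythroid factors, 0 B cell, 9 replication, 10 mitosis, 0 ribosomal and 5 oxidative defence genes, and higher in SMP were 11 late neutrophil, 20 monocyte, 22 Ras and Rap and 17 glycolysis genes. List medians turned to -0.62 (erythroid factors), -0.28 (ribosomal) and -0.11 (oxidative defence), and log2 differences to -0.05 for Aen, -0.14 for Alas2, -0.66 for Bcl11a, -0.53 for Calr, -0.21 for Ikzf1, -0.61 for Ldb1, -0.62 for Lmo2, -0.05 for Plvap, -0.43 for Rapgef1, -0.11 for Rapgef6, -0.64 for Bpgm and -0.9 for both Hba-a2 and Mfsd2b. Other turns were -0.52 for Hba-a2 and -0.11 for Mfsd2b in the regularised log2 table, -0.01 for both Hba-a2 and Mfsd2b in the 12-library fit, -0.12 for Cd3e with a pseudocount of 8, 0.03 for Nras with trimmed mean scaling and 0.11 for the p53 median with a filter at a mean of 100. That filter left 5 mast cell and 6 stroma genes tested, of which 4 and 5 were higher in SMP. B cell genes higher in MEP numbered 0 with no filter and 2 in the 12-library fit.

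Leaving out 1 library gave 1 to 8 late neutrophil genes higher in SMP, 0 to 5 B cell genes higher in MEP and 5 to 9 p53 genes higher in SMP. Genes that were not called ranged across 0: Cd3e from -0.99 to 1.09, Nras from -0.04 to 0.05, Rag1 from -2.29 to 0.69, Bpgm from -0.12 to 0.65, Hba-a2 from -0.44 to 0.49 and Mfsd2b from -0.22 to 0.3.

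The contrast of tissues gave 76 genes (42 higher, 34 lower) with no replicate block, 37 (0 higher, 37 lower) without rescaling and 359 (224 higher) with a filter at a mean of 100. Leaving out 1 of 12 libraries gave 15 to 642 (8 to 402 higher, 7 to 443 lower). The cause of these moves was not tested. Spleen MEP and SMP of the same replicate number came from different mice of the same age. With age as a block 9360 genes were called, and among named genes Calr, Egr1, Id1, Ighv7-1, Lmo2 and Plk2 lost the call (adjusted p from 0.0553 to 0.0799). Higher in SMP were then 12 interferon, 8 monocyte, 5 immediate early and 7 stress erythropoiesis genes. With 3 mice a group and the read depth unknown, differences that missed the threshold are not shown to be absent.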

Other observations

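Several gene families were counted after their values were seen, leaving out the members that the lists hold. Over all genes tested 33.7% were higher in SMP and 32.5% higher in MEP. Of 7 other Hox genes tested 5 were higher in SMP and 0 in MEP, with a median log2 difference of -2.46. Of 22 other integrin genes 14 were higher in SMP and 2 in MEP (median -2.76). Of 366 other Zfp and Znf genes 153 were higher in SMP and 53 in MEP (median -0.32), or 259 and 1 without rescaling, and copies of this family may share reads.

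Of 83 immunoglobulin segments and constant regions outside the lists 43 were higher in MEP and 3 in SMP (median 3.44). The number higher in MEP was 20 without MEP replicate 2 and 24 without SMP replicate 3. Their summed value was 3023, 7707 and 10016 in MEP replicates 1 to 3 and 3293, 1623 and 900 in SMP, so MEP replicate 1 lay below SMP replicate 1. Segments resemble each other, and their counts are uncertain.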
